A study of Mus musculus with 6 samples.

Results

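The transcripts of 10 chemokine ligands were followed through a TGFβ1-driven epithelial-to-mesenchymal transition and its reversal in EpH4 cells, a near-normal mouse mammary epithelial cell line. The ligands were taken by gene symbol from a table of 17428 genes, by a rule that uses no measured value, although earlier results of these data were known when this set was proposed. They were *Cxcl1*, *Cxcl2*, *Cxcl5*, *Cx3cl1*, *Cxcl16*, *Cxcl12*, *Cxcl10*, *Ccl2*, *Ccl7* and *Ccl20*, and all 10 passed the filter on low values. The E cells were kept in medium with serum, antibiotics and human insulin and never received TGFβ1, the M cells had TGFβ1 added to that medium for 7 days, and the RE cells were M cells returned to medium without TGFβ1 for another 4 days. Per stage 2 biological replicates were sequenced, giving 6 libraries of 1 cell line. A p-value therefore rests on the spread between the replicate cultures within a stage, and not between lines or animals.

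Chemokines are small secreted or membrane-anchored proteins that steer leukocytes along a gradient by binding G-protein-coupled receptors. Epithelia make them at rest and raise many of them through NF-κB when they sense interleukin-1, tumour necrosis factor or microbial products. In the mammary gland and its tumours they are known for drawing neutrophils, monocytes and lymphocytes, and *Cxcl12* also for acting on the epithelial and stromal cells themselves.

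The table gives sequenced bases summed per gene, and the libraries hold between 35782513 and 47928600 reads' worth of 50 bases. Levels are given as normalized coverage in ppm, that is, the gene's share of the library's bases in ppm after TMM scaling, and errors are the SD over the 2 libraries of a stage (n = 2). A gene was called in a comparison when its log2 fold change exceeded 1 in either direction with a limma adjusted p below 0.01, over 13893 genes tested. Log2 fold changes above 0 mean a higher level in the stage named second. Each stage enters 2 of the 3 comparisons, so these share libraries. The E libraries were less alike than the others: 7.67% of the genes tested differed more than 2-fold between them, against 2.03% for the M and 1.61% for the RE libraries. *Cxcl5*, *Ccl2* and *Ccl7* were among those genes in the E cells.

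The neutrophil attractants *Cxcl1*, *Cxcl2* and *Cxcl5* fell in the M cells and rose again after TGFβ1 removal, and *Cxcl1* and *Cxcl2* ended above the E cells. *Cx3cl1* and *Cxcl12* rose with TGFβ1, and both were still above the E cells in the RE cells. *Cxcl16* was lower in the RE cells than in the other stages. *Cxcl10*, *Ccl2*, *Ccl7* and *Ccl20* were called in none of the 3 comparisons. In each comparison 5 of the 10 ligands were called, where the share of all genes called was 16.8% for E vs. M, 12.7% for M vs. RE, and 9.08% where E and RE were compared. Of the 5 calls, 2 were rises and 3 falls with TGFβ1 (E vs. M), 3 were rises and 2 falls after its removal (M vs. RE), and the RE cells exceeded the E cells in 4 and fell short in 1. The median log2 fold change of the 10 ligands was −0.50, 0.51 and 0.44 in the 3 comparisons, against −0.0026, −0.024 and −0.0023 over all genes tested.

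**Figure D1:**
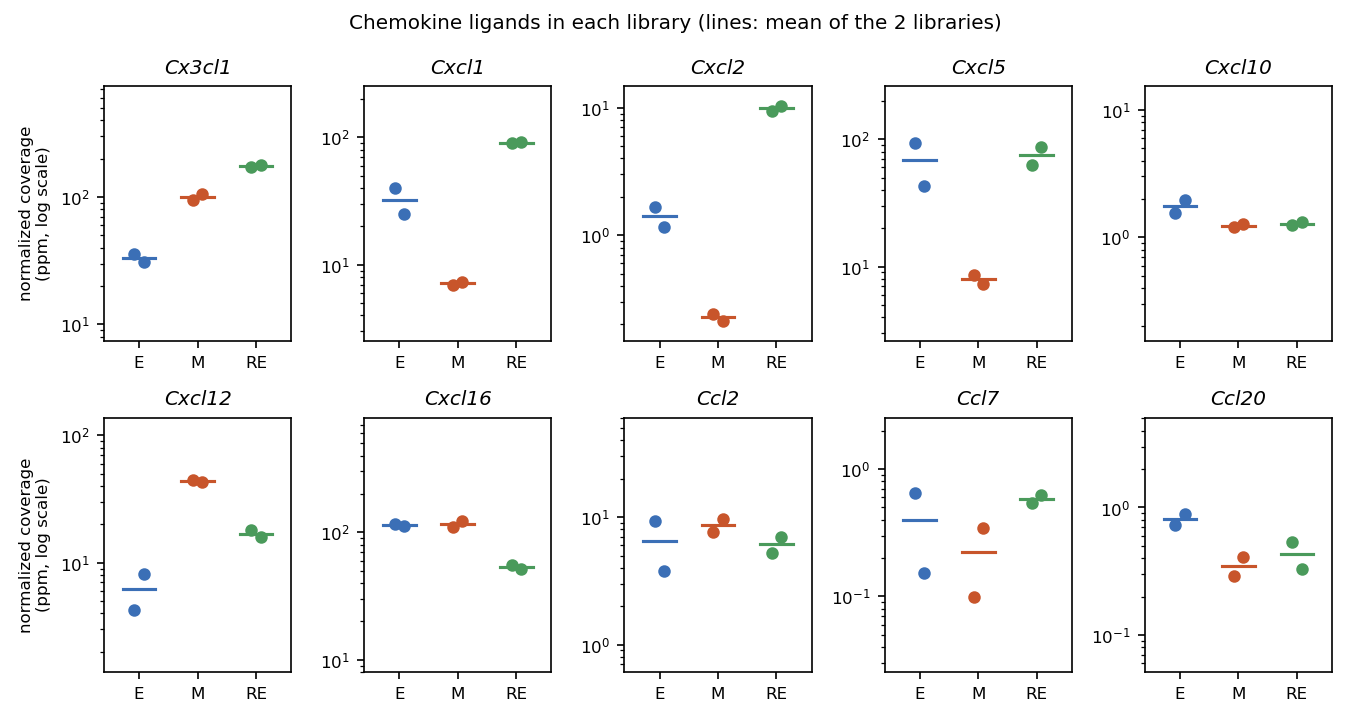
Normalized coverage (ppm, log scale) of each chemokine ligand in the E, M and RE stages, with 1 point per library and a line at the mean of the 2 libraries; every panel spans the same number of log units. *Cxcl1*, *Cxcl2* and *Cxcl5* dip in M, *Cx3cl1* climbs from 33.1 to 100.3 and 174.6 ppm, *Cxcl12* peaks in M and *Cxcl16* drops in RE.

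The promoters of *Cxcl1*, *Cxcl2* and *Cxcl3* are shown because these genes, neighbours in the same chemokine cluster, were each called lower in E vs. M and higher in M vs. RE and have a promoter in the RefSeq-based table used (GRCm38.p6, a newer build than that of the authors' mapping). Each line gives the 250 bases before the annotated start, 5′ to 3′, with a site of NF-κB type in capitals. The letters searched were GGNNTTTCC on either strand, which cover only part of the sequences that NF-κB can bind, and no other motif was searched. *Cxcl1* lies at chr5:90890995-90891244, *Cxcl2* at chr5:90903649-90903898 and *Cxcl3* at chr5:90785851-90786100, all on the + strand.
Cxcl1: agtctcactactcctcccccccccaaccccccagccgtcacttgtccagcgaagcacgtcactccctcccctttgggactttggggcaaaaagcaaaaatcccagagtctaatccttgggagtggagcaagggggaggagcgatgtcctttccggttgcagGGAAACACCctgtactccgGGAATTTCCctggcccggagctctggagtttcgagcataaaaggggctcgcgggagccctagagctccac
Cxcl2: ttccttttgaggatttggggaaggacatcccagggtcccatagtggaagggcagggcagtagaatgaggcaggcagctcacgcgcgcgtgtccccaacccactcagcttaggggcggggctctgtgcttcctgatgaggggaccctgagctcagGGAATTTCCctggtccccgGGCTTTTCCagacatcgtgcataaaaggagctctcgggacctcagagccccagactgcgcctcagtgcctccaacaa
Cxcl3: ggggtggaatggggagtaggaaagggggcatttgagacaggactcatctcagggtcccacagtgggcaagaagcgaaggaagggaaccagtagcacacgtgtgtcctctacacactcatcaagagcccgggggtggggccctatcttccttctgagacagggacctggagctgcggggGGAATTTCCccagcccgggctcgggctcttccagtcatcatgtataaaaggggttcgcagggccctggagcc

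The letters GGAATTTCC occur in all 3 promoters, starting at base −70 from the start in *Cxcl1*, −96 in *Cxcl2* and −72 in *Cxcl3*. A second match starts at −89 in *Cxcl1*, where it reads GGAAACACC, and at −77 in *Cxcl2*, where it reads GGCTTTTCC. Promoters were matched by symbol for 6 of the 10 ligands, and those of *Cxcl10* (at −158) and *Ccl20* (at −80) also held 1 match each, whereas those of *Cx3cl1* and *Cxcl12* held none. A match was thus present in 4 of 6 ligands. It was present in 5.55% of the promoters of genes tested and in 4.93% of all 32851 promoters. A match is a description of the letters and not a measurement of binding, and *Cxcl10* and *Ccl20* hold one without having been called in any comparison. *Cxcl5*, *Cxcl16*, *Ccl2* and *Ccl7* had no entry.

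Of the 10 ligands, *Cxcl1*, *Cxcl2* and *Cxcl5* draw neutrophils through the receptor Cxcr2. *Cxcl1* coverage was 39.8 and 25.0 ppm in the E libraries, 7.00 and 7.32 ppm in the M libraries, and 89.4 and 91.2 ppm in the RE libraries. The 3 stages did not overlap, and the RE libraries were the highest. *Cxcl1* fell by 2.12 on the log2 scale in E vs. M (SE 0.22, limma adjusted p = 0.000379) and rose by 3.64 in M vs. RE (SE 0.22, limma adjusted p = 4.68e-05). Against the E cells, its RE mean was 2.79-fold higher (log2 fold change 1.51, 95% confidence interval 1.01 to 2.02, limma adjusted p = 0.00335). The E vs. RE call was the less firm: its adjusted p was between 0.0117 and 0.0472 by limma when either M library or either RE library was left out, and 0.0153 when only the E and RE libraries were fitted.

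*Cxcl2* was the ligand with the widest range. It was at 1.67 and 1.17 ppm in the E libraries, 0.242 and 0.211 ppm in the M libraries, and 9.42 and 10.4 ppm in the RE libraries. Again no library of one stage lay within the range of another. Its level in the M cells rests on 508 and 433 bases, above the floor of 150 bases (3 reads' worth). *Cxcl2* fell by 2.20 on the log2 scale in E vs. M (SE 0.26, limma adjusted p = 0.000694). With a pseudocount of 1 ppm, which weighs heavily on so low a level, the value was −0.97 and was not called. From M to RE the mean rose 43.6-fold (log2 fold change 4.93, SE 0.26, limma adjusted p = 2.81e-05), and the RE mean was 6.97 times the E mean (log2 fold change 2.74, 95% confidence interval 2.13 to 3.34, limma adjusted p = 0.00081). Without RE library 1 or 2 the E vs. RE value was 2.81 and 2.67, with an adjusted p of 0.0204 and 0.0168 by limma, so the call was lost. Of the 50-base stretches of its longest coding transcript, 3.37% also occur in another gene, mostly *Cxcl3*.

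*Cxcl5* was also low in the M cells, and was not called between the E and RE cells. Its coverage was 93.6 and 42.7 ppm in the E libraries, 8.66 and 7.30 ppm in the M libraries, and 62.3 and 87.6 ppm in the RE libraries. Both M libraries were far below all others, while the RE libraries lay inside the range of the E libraries. *Cxcl5* fell by 2.98 on the log2 scale in E vs. M (SE 0.35, limma adjusted p = 0.000728), the largest fall among the ligands in that comparison. It rose by 3.20 in M vs. RE (SE 0.35, limma adjusted p = 0.00064), with a call that was just lost without RE library 2 (2.96, limma adjusted p = 0.0103). In E vs. RE the log2 fold change was 0.22, with a 95% confidence interval from −0.60 to 1.05 (limma adjusted p = 0.656), an interval that leaves room for a difference in either direction. That value was 0.78 without E library 1 (limma adjusted p = 0.0036) and −0.36 without E library 2, and 0.47 and −0.02 without RE library 1 and 2.

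**Figure D2:**
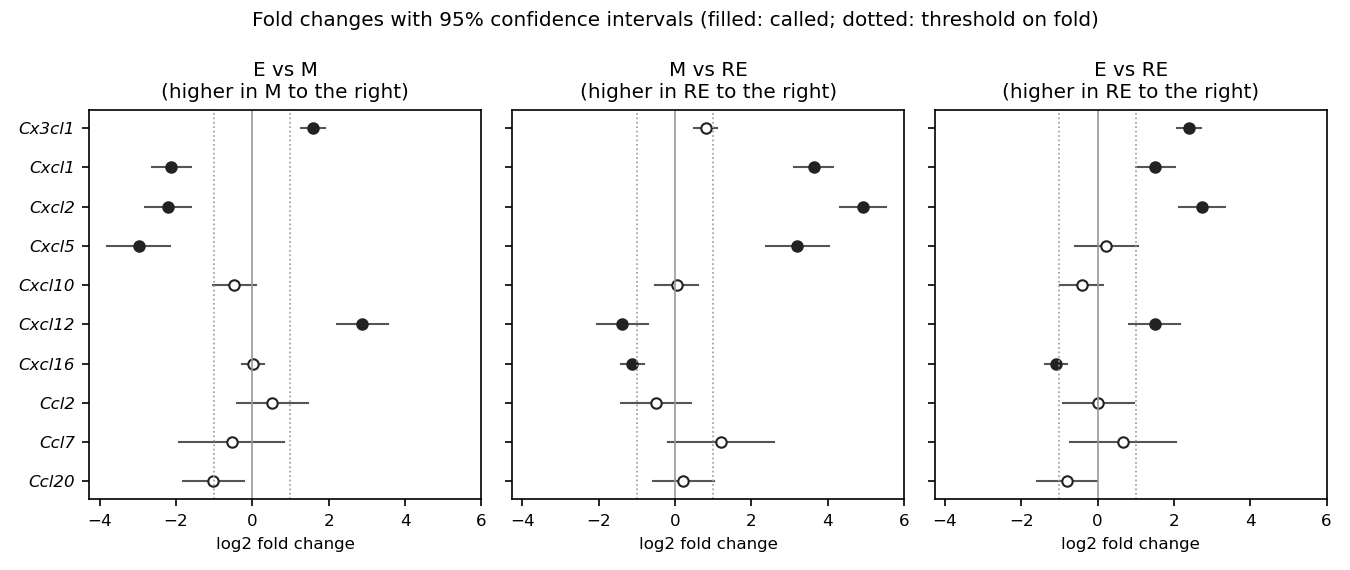
Log2 fold change of each ligand (points) with its 95% confidence interval (lines) in E vs. M, M vs. RE and E vs. RE; filled points were called, open points were not, and dotted lines mark a 2-fold change. The 3 neutrophil attractants lie left of the dotted lines in E vs. M and right of them in M vs. RE, with *Cxcl2* at 4.93, and only *Cxcl5* of the 3 is near 0 in E vs. RE.

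*Cx3cl1*, or fractalkine, and *Cxcl16* are made as membrane-anchored proteins that hold cells bearing Cx3cr1 and Cxcr6 and are released by the proteases Adam10 and Adam17. *Cx3cl1* coverage was 35.4 and 30.8 ppm in the E libraries, 94.8 and 105.8 ppm in the M libraries, and 170.7 and 178.6 ppm in the RE libraries. The replicates were close and the stages stood apart, in the order E, M, RE. *Cx3cl1* rose 3.03-fold in E vs. M (log2 fold change 1.60, SE 0.13, limma adjusted p = 0.000161) and was 5.28 times as high in the RE as in the E cells (log2 fold change 2.40, SE 0.13, limma adjusted p = 0.000268). The step from M to RE, 1.74 times in the means, had an adjusted p of 0.00402 by limma but a log2 fold change of 0.80, and was not called. It was called with libraries scaled by their totals only (1.01), where the median of all genes in this comparison was 0.18. Without RE library 1, *Cx3cl1* in E vs. RE had a log2 fold change of 2.44 and an adjusted p of 0.0111 by limma.

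*Cxcl16* went the other way from *Cx3cl1* after TGFβ1 removal. It was at 115.9 and 112.0 ppm in the E libraries, 109.4 and 122.2 ppm in the M libraries, and 55.0 and 51.8 ppm in the RE libraries. The E libraries lay within the range of the M libraries, and both RE libraries were lower than every other library. In E vs. M the log2 fold change was 0.02, with a 95% confidence interval of −0.27 to 0.31 that keeps within a 2-fold change (limma adjusted p = 0.9). *Cxcl16* fell by 1.11 on the log2 scale in M vs. RE (SE 0.12, limma adjusted p = 0.000685) and by 1.09 in E vs. RE (SE 0.12, limma adjusted p = 0.00146), where it was the only ligand called lower. Both values are close to the fold threshold. With library totals the M vs. RE value was −0.90 and was not called, and leaving out either M or either RE library gave −1.201 to −1.04 with adjusted p between 0.0103 and 0.0165 by limma. Without RE library 1 or 2 the E vs. RE call was lost too (−1.13 and −1.05, limma adjusted p = 0.0304 and 0.0276). Exons of *Cxcl16* overlap those of *Zmynd15* in the newer annotation, and 18.98% of its 50-base stretches occur there as well. *Zmynd15* coverage was 8.73 ± 1.75 ppm at stage E, 11.4 ± 0.542 at stage M and 5.76 ± 0.355 at stage RE (SD, n = 2), and since no source used here gives the strand of the libraries, reads from the shared stretch cannot be told apart.

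*Cxcl12* is a chemokine of stromal cells that acts through Cxcr4 and is scavenged by Ackr3. Its coverage was 4.25 and 8.19 ppm in the E libraries, 44.7 and 43.3 ppm in the M libraries, and 18.0 and 15.8 ppm in the RE libraries. The stages did not overlap, with the RE libraries between the other 2 stages. *Cxcl12* rose 7.08-fold in E vs. M (log2 fold change 2.88, SE 0.28, limma adjusted p = 0.000322), the largest rise among the ligands in that comparison, and was called there under every alternative. In M vs. RE it fell by 1.38 (SE 0.28, limma adjusted p = 0.009997), which passed the threshold by almost nothing and was lost in 10 of 15 alternatives, among them each of those without 1 M or RE library (adjusted p between 0.0618 and 0.0779 by limma). In E vs. RE its mean was 2.72 times higher in the RE cells (log2 fold change 1.498, 95% confidence interval 0.83 to 2.16, limma adjusted p = 0.00856), and this call was lost in 8 of 15 alternatives. *Cxcl12* kept its direction in all of them. Without 1 M library the adjusted p was 0.0246 or 0.0244 and without 1 RE library 0.0897 or 0.0524 by limma. Fibroblast markers moved unevenly in E vs. M and in M vs. RE. In each of these, 2 of the 4 tested were called higher and 1 lower, where 16.8% and 12.7% of all genes were called. In E vs. RE all 4 were called higher, where 9.08% of all genes were called. *Col1a1*, a fibrillar collagen, rose in E vs. M (log2 fold change 3.93, limma adjusted p = 1.89e-05) and fell in M vs. RE (−1.08, limma adjusted p = 0.00409). *Pdgfrb*, a growth factor receptor, rose in E vs. M (2.45, limma adjusted p = 0.000153) and was not called in M vs. RE (0.78). *Pdgfra* was not called in E vs. M (0.77) and rose in M vs. RE (1.40, limma adjusted p = 0.000593). The proteoglycan gene *Dcn* was at or below 3 reads' worth in both M libraries and averaged 2.75 ppm in the RE cells. Of 6 markers listed, 5 were in the table with *Thy1* at or below 3 reads' worth in every library, and their summed coverage was 116.2 to 146.9 ppm in the E libraries, 886 to 1038 ppm in the M libraries and 965 to 1172 ppm in the RE libraries. Their part in the *Cxcl12* result was not tested, and in bulk RNA a larger number of cells of a kind and more RNA per cell cannot be told apart.

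*Cxcl10*, an interferon-induced ligand of Cxcr3 that draws T cells, was low in all 6 libraries. It was at 1.54 and 1.97 ppm in the E libraries, 1.204 and 1.26 ppm in the M libraries, and 1.25 and 1.31 ppm in the RE libraries. Both E libraries were above all others, but the difference was small. The log2 fold change was −0.47 in E vs. M (95% confidence interval −1.03 to 0.10, limma adjusted p = 0.158), 0.05 in M vs. RE (−0.52 to 0.61, limma adjusted p = 0.903) and −0.42 in E vs. RE (−0.99 to 0.15, limma adjusted p = 0.221). Its exons overlap those of *Art3* in the newer annotation, which was at 0.143 ppm or less on average in each stage.

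*Ccl2* and *Ccl7*, which draw monocytes through Ccr2, were called in no comparison, and their E libraries differed more than 2-fold. *Ccl2* was at 9.25 and 3.805 ppm in the E libraries, 7.67 and 9.62 ppm in the M libraries, and 5.19 and 7.04 ppm in the RE libraries. The E libraries spanned both RE libraries and the lower M library, whereas the M and RE libraries did not overlap. In E vs. M it gave a log2 fold change of 0.52 (95% confidence interval −0.40 to 1.45, limma adjusted p = 0.318), but 1.15 and called without E library 1 (limma adjusted p = 0.000941) and −0.14 without E library 2. *Ccl2* was also not called in M vs. RE (−0.50, limma adjusted p = 0.375) or E vs. RE (0.02, 95% confidence interval −0.90 to 0.95, limma adjusted p = 0.968). *Ccl7* was lower, at 0.642 and 0.152 ppm in the E libraries, 0.0997 and 0.343 ppm in the M libraries, and 0.544 and 0.625 ppm in the RE libraries. The M libraries of *Ccl7* also differed more than 2-fold. M library 1 held 209 bases and E library 2 held 290 bases, near the floor of 150 bases. Only the M and RE libraries of *Ccl7* did not overlap, with a log2 fold change of 1.201 whose 95% confidence interval ran from −0.18 to 2.58 (limma adjusted p = 0.164).

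*Ccl20*, the ligand of Ccr6 on dendritic cells and lymphocytes, was at 0.727 and 0.894 ppm in the E libraries, 0.289 and 0.412 ppm in the M libraries, and 0.536 and 0.326 ppm in the RE libraries. Both E libraries were above all others. The mean in the M cells was 0.432 of that in the E cells (log2 fold change −1.02, 95% confidence interval −1.82 to −0.22, limma adjusted p = 0.0465), which met the threshold on fold but not on adjusted p. *Ccl20* was not called in M vs. RE (0.22, limma adjusted p = 0.661) or E vs. RE (−0.80, limma adjusted p = 0.114).

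**Figure D3:**
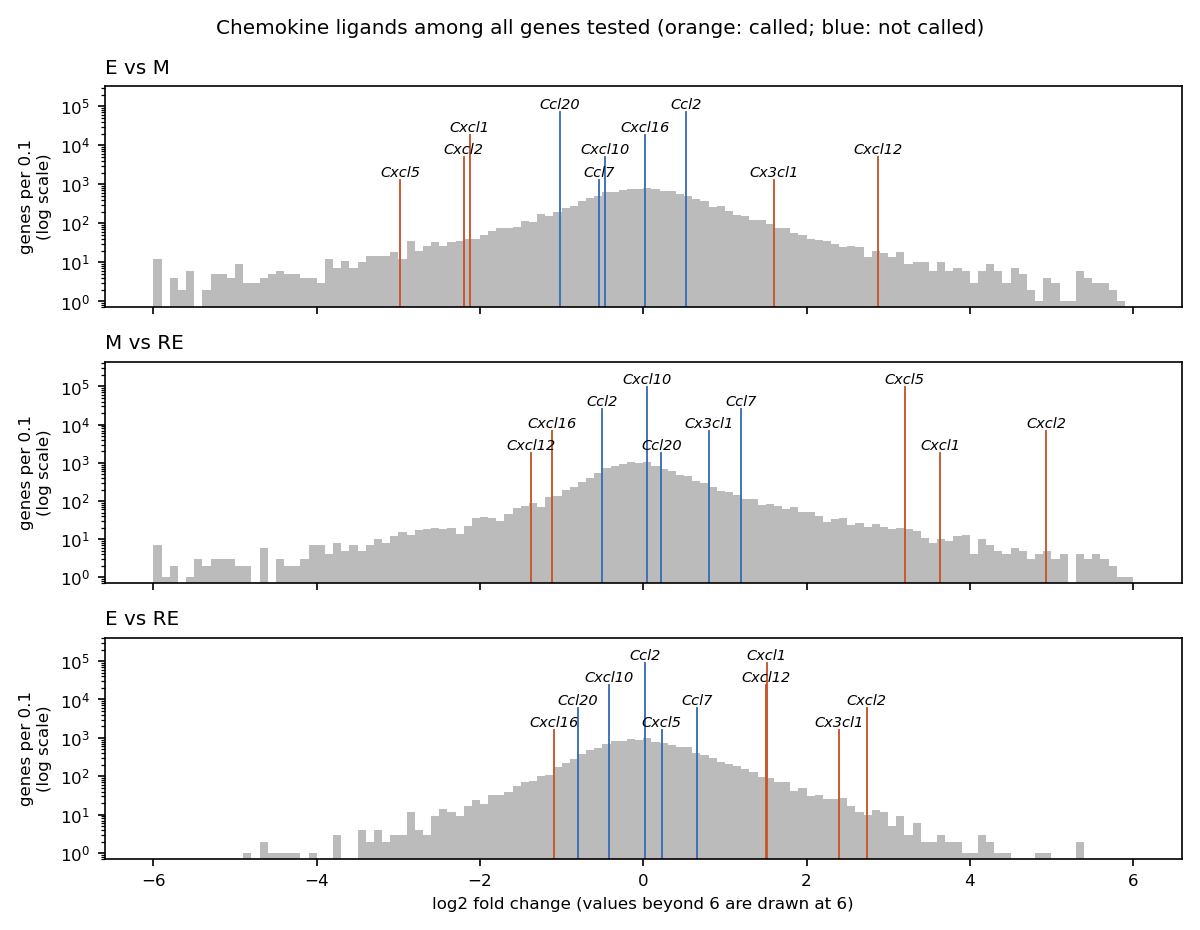
Histogram of the log2 fold changes of all 13893 genes tested (grey, bins of 0.1, number of genes on a log scale) with the 10 ligands as vertical lines, orange where called and blue where not; the height of a line has no meaning and only separates the names. *Cxcl12* at 2.88 and *Cxcl5* at −2.98 lie in the tails of E vs. M, *Cxcl1*, *Cxcl2* and *Cxcl5* in the upper tail of M vs. RE.

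Per length, the most abundant ligand was not the same in each stage. Coverage was divided by the length of the longest coding transcript in the newer annotation, and levels are in ppm per kb (mean ± SD, n = 2). The order depends on the transcript taken, which was 5627 bases for *Cxcl12*, the longest of the 10, and no other transcripts were tried. In the E cells *Cxcl5* (43.3 ± 22.9), *Cxcl16* (42.2 ± 1.03) and *Cxcl1* (34.0 ± 11.0) came first and did not differ beyond the spread of *Cxcl5*, followed by *Cx3cl1* (9.97 ± 0.980) and *Ccl2* (8.03 ± 4.74), which overlapped. In the M cells *Cxcl16* (42.9 ± 3.35) led, with *Cx3cl1* (30.2 ± 2.35) next and then *Ccl2* (10.6 ± 1.69), *Cxcl12* (7.83 ± 0.174), *Cxcl1* (7.51 ± 0.237) and *Cxcl5* (5.06 ± 0.612). The lower *Cxcl12* library and the higher *Cxcl1* library were almost level (7.70 and 7.68 ppm per kb). In the RE cells *Cxcl1* (94.8 ± 1.31) was first, above *Cx3cl1* (52.7 ± 1.69) and *Cxcl5* (47.6 ± 11.3), which overlapped, and *Cxcl16* (19.8 ± 0.831). *Cxcl2* reached 5.32 ± 0.356 in the RE cells, so its large fold change starts from and leads to a far lower level than that of *Cxcl1*. *Cxcl10*, *Ccl7* and *Ccl20* stayed at or below 1.30 ppm per kb on average in every stage.

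Genes with a pattern like each called ligand were taken as the nearest pair by Euclidean distance between log2 values centred over the 6 libraries. They were *Gprin3* and *Ecm1* for *Cx3cl1* (distances of 0.28 and 0.28), *Fzd7* and *1190002H23Rik* for *Cxcl1* (0.35 and 0.37), *Atoh8* and *Matn4* for *Cxcl2* (0.54 and 0.62), *Gsta4* and *Ptgis* for *Cxcl5* (0.73 and 0.73), *Ncam1* and *Itgav* for *Cxcl12* (0.32 and 0.34), and *Itgae* and *Strbp* for *Cxcl16* (0.18 and 0.28). *Fzd7*, for example, was at 79.8 ± 26.0 ppm at stage E, 21.1 ± 0.635 at stage M and 221 ± 22.7 at stage RE (SD, n = 2). *Itgav* was at 68.9 ± 27.7, 609 ± 2.33 and 202.3 ± 10.1 ppm.

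Of 30 further chemokine ligands listed, 14 were in the table and 8 passed the filter, while 3 were at or below 3 reads' worth in every library. In E vs. M 1 was called higher and 2 lower, in M vs. RE 2 were called higher, and in E vs. RE 1 was called lower, where 16.8%, 12.7% and 9.08% of all genes were called. The last count, 1 of 8, is near that background. *Cxcl3*, another Cxcr2 ligand, followed *Cxcl1* and *Cxcl2* in part. With TGFβ1 it fell from 7.55 ± 2.36 to 0.647 ± 0.0717 ppm (log2 fold change −3.32, limma adjusted p = 0.000202) and after removal it rose to 4.85 ± 1.24 ppm (2.71, limma adjusted p = 0.000603), a level not called different from that at the start (−0.61, limma adjusted p = 0.149). *Ccl5*, a T-cell and monocyte attractant, also fell (−1.57, limma adjusted p = 0.00181) and rose again (1.33, limma adjusted p = 0.00477). *Ccl17*, a ligand of Ccr4, rose in E vs. M (2.37, limma adjusted p = 0.00138). *Ccl25*, a ligand of Ccr9, fell in E vs. RE (−1.15, limma adjusted p = 0.00672). *Ppbp* was tested too and was called in no comparison (−0.70, 0.27 and −0.43 in E vs. M, M vs. RE and E vs. RE).

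Transcripts of the receptors found were scarce. Of 23 listed, 14 were in the table and 8 were tested. By limma 0 were called in E vs. M or E vs. RE, where 16.8% and 9.08% of all genes were called. An unadjusted limma p below 0.05 was seen for 3 and 2 receptors, and for 7104 and 6056 of all 13893 genes tested. In M vs. RE 1 of the 8 was called, near the background of 12.7%. It was *Ccrl2*, a receptor that binds chemerin without classical signalling. *Ccrl2* was at 200 and 0 bases in the M libraries and rose to 0.499 ± 0.00629 ppm in the RE cells (log2 fold change 2.10, limma adjusted p = 0.00902). The receptors of the ligands described here were looked up after the values were seen. *Cxcr4*, *Ccr2* and *Ccr6* were listed but not found by symbol, so their levels are not known. *Cxcr2* and *Cxcr3* were at or below 3 reads' worth in all 6 libraries. *Cx3cr1* averaged 0.253 ppm or less and *Cxcr6* 0.700 ppm or less in each stage. *Ackr3*, the scavenger of *Cxcl12*, was the best covered, at 5.19 ± 3.14, 7.49 ± 0.554 and 7.31 ± 1.83 ppm at stages E, M and RE, and was not called in any comparison. *Adam10*, which sheds *Cx3cl1* and *Cxcl16*, rose in E vs. M from 101.7 ± 14.7 to 308 ± 2.35 ppm (log2 fold change 1.61, limma adjusted p = 0.000235) and was at 184 ± 17.6 ppm in the RE cells. *Adam17* was not called in any comparison, and *Dpp4* was at or below 3 reads' worth in every library.

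Genes that regulate chemokine transcripts were examined as a list of 19, of which 17 were tested. In E vs. M 2 were called higher and 3 lower, in M vs. RE 8 higher and 0 lower, and 9 were higher and 0 lower in the RE than in the E cells. Of all genes tested, 1169 were called higher and 1160 lower with TGFβ1 (16.8% in all), 1100 and 666 after its removal (12.7%), and 823 and 439 between E and RE (9.08%). The regulators had a median log2 fold change of 0.13, 0.49 and 1.48 in turn. This list was drawn up with earlier results of these data known, *Nfkbiz* among them, so its counts are not independent evidence of a direction. *Zfp36*, which encodes a protein that destabilizes AU-rich transcripts, fell from 47.2 ± 10.9 to 8.63 ± 0.802 ppm in the M cells and rose to 146.6 ± 2.30 ppm in the RE cells (log2 fold change −2.42, 4.07 and 1.65 in E vs. M, M vs. RE and E vs. RE, limma adjusted p = 9.80e-05, 1.66e-05 and 0.00131). *Nfkbiz*, a nuclear IκB protein, was at 56.5 ± 3.10, 33.8 ± 3.89 and 312.2 ± 3.20 ppm (−0.74, 3.21 and 2.46), and its fall in E vs. M was not called. The decoy interleukin-1 ligand *Il1rn* fell and then rose (−1.24, 2.77 and 1.53). *Il1r1*, the interleukin-1 receptor, rose in the RE cells from 8.32 ± 0.932 ppm in the M cells to 32.6 ± 0.101 ppm (1.96, limma adjusted p = 0.00156). The NF-κB inhibitors *Nfkbia* and *Tnfaip3* rose in M vs. RE (1.13 and 1.85) and in E vs. RE (1.80 and 1.48). The 2 regulators called higher in E vs. M were *Tnf* (1.78, limma adjusted p = 0.00134) and *Il17ra* (1.09, limma adjusted p = 0.00208). Neither was called in M vs. RE (−0.27 and −0.26). Whether any of these genes acts on the chemokine ligands was not tested.

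**Figure D4:**
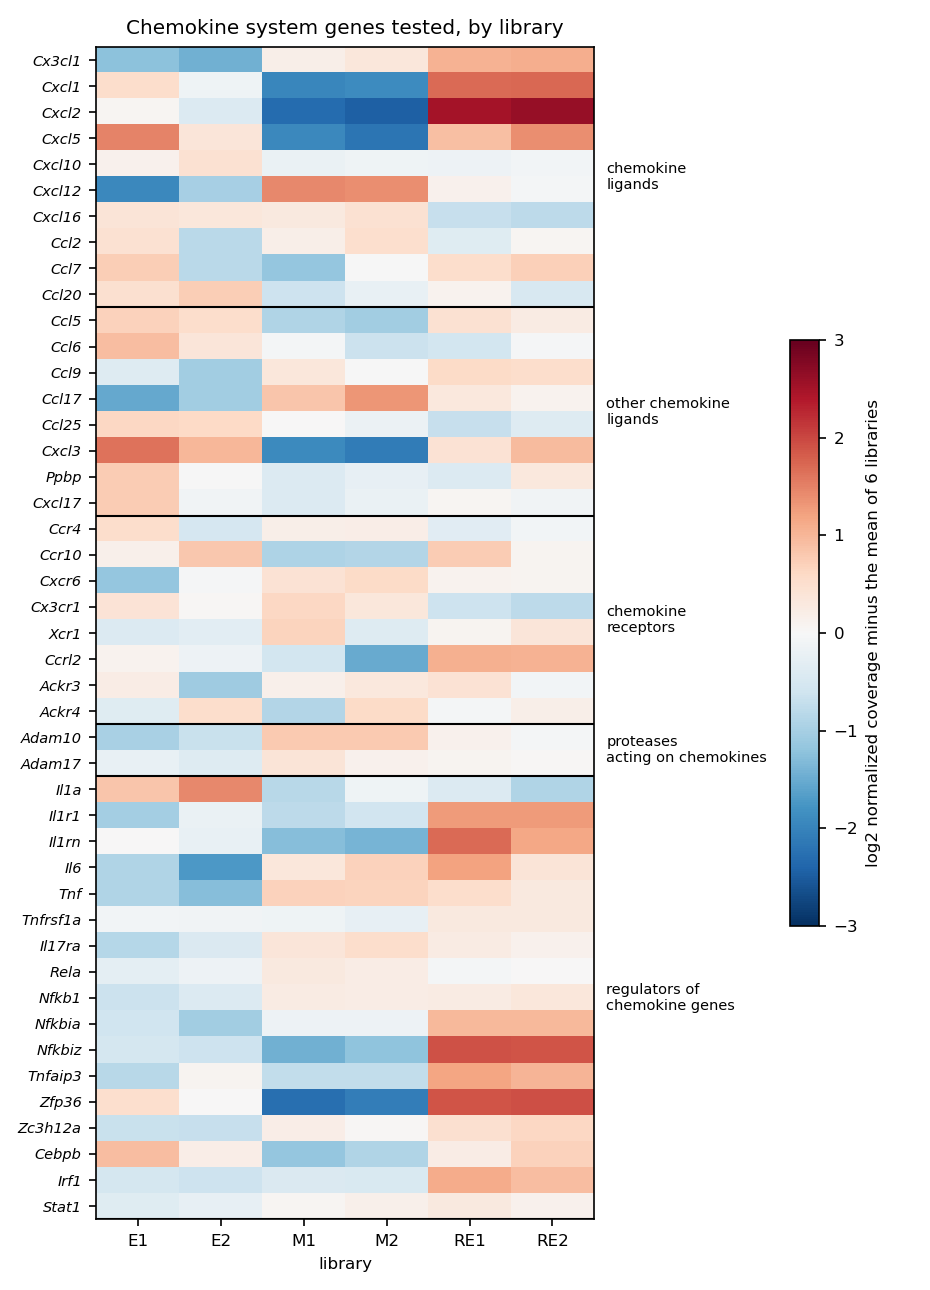
Log2 normalized coverage of the chemokine ligands, further ligands, receptors, proteases and regulators that were tested, minus each gene's mean over the 6 libraries (red above, blue below, scale from −3 to 3); columns are libraries and rows are genes. *Cxcl1*, *Cxcl2*, *Zfp36* and *Nfkbiz* share low M and high RE columns, while the regulators *Tnf* and *Il17ra* were called higher in E vs. M.

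The cells carried epithelial transcripts at every stage. All 7 epithelial markers were in the table, with a summed coverage of 1751 to 2173 ppm in the E libraries, 1963 to 2112 ppm in the M libraries and 1163 to 1225 ppm in the RE libraries. The sum is carried by the keratins, and in E vs. M its members moved apart. The adhesion molecule *Epcam* (−1.27, limma adjusted p = 0.000669) and the tight junction gene *Cldn7* (−1.89, limma adjusted p = 7.01e-05) fell, while the basal keratin *Krt14* rose (1.42, limma adjusted p = 0.00104). In M vs. RE *Krt8* (−1.33) and *Krt14* (−1.11) were called lower and 0 markers higher. In E vs. RE *Epcam* (−1.24), *Cldn7* (−1.34) and *Krt18* (−1.35) were called lower and 0 markers higher. Of all genes, 12.7% and 9.08% were called in these 2 comparisons. Of 8 leukocyte markers, *Ptprc* and *Cd3e* were at or below 3 reads' worth in every library, and the summed coverage was 7.05 to 10.9 ppm in E, 33.3 to 37.5 ppm in M and 8.21 to 8.24 ppm in RE. Most of the sum in M was *Csf1r* (27.9 ± 3.11 ppm), a macrophage receptor, which was at 1.42 ± 0.187 ppm in the E cells. The 5 endothelial markers summed to 0.373 to 0.623 ppm in E, 2.70 to 2.75 ppm in M and 0.491 to 0.536 ppm in RE. Most of the sum in M was *Cdh5* (2.20 ± 0.166 ppm), which was at 0 bases in both E libraries. *Cdh5* rose in E vs. M (4.52, limma adjusted p = 0.000101) and fell in M vs. RE (−3.81, limma adjusted p = 0.00024).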

How the data were processed

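The authors mapped the unique reads of 2 libraries each of E, M and RE cells to the NCBI-m37 mouse genome with Bowtie and TopHat2 (versions not given in the sources used here) and deposited 1 unscaled table of whole numbers per gene symbol. The step that summed reads per gene, and its annotation, are likewise not given. The deposited values were handled as signal (coverage in bases), since they are too large for read counts and 44.8% to 48.4% of those from 1 to 400 are multiples of 50, so the edgeR test of the paper was not run. All 6 columns were matched to samples by stage and replicate number.

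Coverage was scaled by unweighted TMM (30% of log ratios and 5% of levels trimmed at each end, factors from 0.875 to 1.12) over genes that reached 500 bases in 2 or more libraries. limma 3.58.1 in R 4.3.3 was fitted to log2(ppm + 0.1) with all 6 libraries in 1 model, group only, with a trend on mean level and Benjamini-Hochberg adjustment over all genes tested. Fold changes on this scale understate those of low genes. The floor was 3 reads' worth (150 bases), which covers counting error only. Precision is limited by the 2 libraries per stage and, for low genes, by depth. Fits were tested on simulated data.

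The ligands, the gene lists, the rules for naming genes and the alternatives were chosen with earlier results of these data known. Named from the further lists were called genes, up to 6 per list by size of change. *Ppbp*, *Tnf* and *Il17ra* were added outside this rule. *Cxcr2*, *Ackr2*, *Ackr3*, *Ackr4*, *Adgre1* and *Epcam* were matched through older symbols. Transcript lengths, overlaps and shared 50-base stretches came from GENCODE M21 (GRCm38), promoters from RefSeq (GRCm38.p6).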

Additional observations from a re-analysis of the deposited data

How the results depend on the processing

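With 2 libraries per stage the calls rest on few degrees of freedom. Over 15 alternative fits, the log2 fold changes of the 10 ligands kept direction and call in 394 values, while 35 lost a call, 2 gained one and 13 changed sign, all of them of values not called. In E vs. M the number of ligands called was 4 to 6 throughout. The number fell from 5 to 3 both after TGFβ1 removal (M vs. RE) and for E vs. RE when 500 bases were required in every library, which also removes *Cxcl2* and *Ccl7* from the test, and to 3 in E vs. RE when only those 2 groups were fitted (462 of all genes called in place of 1262). Without 1 library at a time it was 5 to 6 for E vs. M, 2 to 5 for M vs. RE (3 without M library 1, M library 2 or RE library 1, and 2 without RE library 2), and 0 to 5 where E and RE were compared (3 without M library 1 or 2). The 0 was without RE library 1, where limma called 9 of all genes and 6 ligands had an unadjusted p below 0.05. Without RE library 2 limma called 1 ligand and 50 of all genes. Without either library, the lone RE library is assumed to vary like the other groups. Library totals in place of TMM changed the median of all genes. The median was then −0.29 for E vs. M, 0.18 for M vs. RE, and −0.08 where E and RE were compared. This scaling turned *Cxcl16* in E vs. M to −0.27 and *Ccl2* in E vs. RE to −0.059. Signs also changed without 1 library at a time. In E vs. M the log2 fold change then ran from −0.14 to 1.15 for *Ccl2*, from −1.34 to 0.23 for *Ccl7* and from −0.051 to 0.11 for *Cxcl16*. In E vs. RE it ran from −0.62 to 0.65 for *Ccl2*, from −0.14 to 1.43 for *Ccl7* and from −0.36 to 0.78 for *Cxcl5*, and in M vs. RE from −0.063 to 0.51 for *Ccl20*. The cause was not tested.

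Same-numbered libraries deviated together at a correlation across genes of 0.27 (E with M), 0.058 (E with RE) and 0.12 (M with RE), and the labels give no shared source, so the numbers were not taken to pair the libraries. With the replicate number as a block, limma called 5 ligands for E vs. M, 4 for M vs. RE, and again 4 when E and RE were compared, the ligand lost in the last 2 being *Cxcl12*.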
